A study of Mus musculus with 12 samples.

Results

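Cytosolic ribosomal proteins were followed at the RNA level in primary cultures of mouse entorhinal cortex (EC) neurons in which the chromatin protein gene *Dek* was silenced or overexpressed. Genes were taken by symbol (Rpl or Rps with a number, plus Rplp0 to Rplp2 and Rpsa, without the Rps6k kinases) and kept at a mean of at least 5 CPM (counts per 1e+06 counts of the library) over the libraries. Of 24100 genes in the table, 85 symbols matched and 81 passed this floor, 48 of the large subunit and 33 of the small subunit. The floor separated clearly detected genes from nearly silent ones. *Rps4l* (11 CPM), *Rps27l* (35.4) and *Rpl7l1* (66.7) were the lowest inside it, and *Rpl39l* (0.899), *Rpl3l* (0.492), *Rpl32l* (0.155) and *Rpl10l* (0) were outside it. The symbol rule leaves out other ribosome genes, among them *Fau*, *Rack1* and *Rpl36al*, which are described beside the members below.

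The cultures were prepared from embryos at embryonic day 17 and transduced after 7 days in vitro with adeno-associated virus (AAV1) at 1e+10 viral genomes per ml of medium. RNA was taken 4 days later. There were 4 groups of 3 libraries. *Dek* shRNA is a U6-driven hairpin against mouse *Dek* and scrambled shRNA is its non-targeting U6 control, while *Dek* cDNA is driven by the hSyn1 (synapsin) promoter and empty vector is its hSyn1 control. All 4 viruses carried mCherry. The replicates were wells, and nothing states whether wells of a group shared a dissection, so p-values measure the spread between these wells. The study's methods describe RNA purified from the lysed cultures, while the libraries' labels also name bacTRAP, the capture of RNA bound to tagged ribosomes. The values are read here as RNA of whole wells, in which fewer cells of a type and less RNA per cell cannot be told apart.

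A ribosome joins a small subunit, which reads the mRNA, to a large subunit, which forms the peptide bond. Each holds ribosomal RNA and a fixed set of proteins used mostly in single copies, so the genes of both subunits are commonly expressed together and at high levels. Most of their mRNAs begin with a C followed by a run of pyrimidines, the 5′ terminal oligopyrimidine (TOP) tract, through which mTOR and Larp1 control their translation. In neurons ribosomal protein mRNAs are found in axons and dendrites as well as in the cell body. DEK binds DNA and histones and is the factor that was manipulated here.

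The libraries held 15679567 to 18933382 estimated counts. *Dek* was at 7.98, 6.67 and 8.62 CPM with *Dek* shRNA, against 35.2, 36.6 and 36.3 with scrambled shRNA, and at 156, 129 and 143 CPM with *Dek* cDNA, against 36, 38.8 and 41.1 with empty vector. Both manipulations therefore followed their labels. The 9 neuron markers summed to 7630 to 8550 CPM with *Dek* shRNA and 8620 to 8820 with scrambled shRNA, while 5 microglial markers together stayed at or below 3.02 CPM in every library. Oligodendrocyte and dividing-cell markers differed between these hairpin groups. The 5 oligodendrocyte markers summed to 82.4 to 89.8 CPM with *Dek* shRNA and 30.8 to 41.2 with scrambled shRNA, and the 4 dividing-cell markers to 20.5 to 35.4 and 8.29 to 19.5 CPM. The dividing-cell markers summed to 20.8 to 26.8 CPM with empty vector and 23.5 to 30 with *Dek* cDNA, within the *Dek* shRNA range. The part of these marker differences in the results below was not tested.

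Sequences that members share with the hairpin site are shown first, for reading beside the silencing values. The hairpin site lies in the coding sequence of *Dek*, in exon 6 of 11, and 9 members carry at least 9 of its letters in a row somewhere in their main transcript. Those shown are the 6 of these 9 that fell with *Dek* shRNA, a choice made on their values, and the other 3 are given with the silencing results. Each window is written 5′ to 3′ along the transcript (GENCODE vM21, GRCm38), aligned to the *Dek* site, with the letters shared with it in capitals.
Dek: CGAACTCGTGAAGAGGATCTT
Rps9: aggccgaGTGAAGAGGAagaa
Rpl28: tgtggtgGTGAAGAGGAaacg
Rpl21: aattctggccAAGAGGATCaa
Rpl27a: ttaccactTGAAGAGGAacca
Rps7: aattgtgggtAAGAGGATCcg
Rpl22: aaccaggaTGAAGAGGAggag

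The *Dek* site is at chr13:47099377-47099397 on the minus strand. The windows are at chr7:3706753-3706773 (plus strand, exon 5 of *Rps9*), chr7:4794462-4794482 (plus, exon 5 of *Rpl28*), chr5:146835570-146835590 (plus, exon 5 of *Rpl21*), chr7:109520504-109520524 (plus, exon 4 of *Rpl27a*), chr12:28631697-28631717 (minus, exon 6 of *Rps7*) and chr4:152332389-152332409 (plus, exon 4 of *Rpl22*). All 6 lie in coding sequence. None matches the whole site of 21 bases, and the longest shared run is 10 bases.

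Promoter starts were read for the 60 members with an entry among the RefSeq promoters (GRCm38.p6, 250 bases before and 50 after each annotated start). Of their 71 starts, 27 (38%) had a run of at least 6 C or T within 5 bases before to 10 bases after the start, against 12.8% of all 32851 starts. A C at the start itself followed by 4 pyrimidines was present at 18.3% of the members' starts and 2.51% of all. The windows of 30 bases below show the longest such run in capitals in members with long and short runs. They stand on the plus strand at chr7:3704025-3704054, chr7:4792949-4792978, chr5:115559451-115559480 and chr9:66946070-66946099.
Rps9: aaccgccttgtCTCTCTTTgtctcgggcct
Rpl28: cccgcctctcgtgTCTCTCTTTCCgtctcc
Rplp0: cgtcttcgggtTTCgaggaccgcctggttc
Rps27l: tccactcctccccgccgCCTCTatcccgga

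The level of each member was compared between genes per kilobase of the shortest annotated transcript with the full coding sequence. *Rpl41*, which encodes the smallest ribosomal protein, stood highest in every group, at 1750 ± 190 CPM per kb with *Dek* shRNA, 1860 ± 53.7 with scrambled shRNA, 1460 ± 145 with *Dek* cDNA and 1410 ± 56.9 with empty vector (SD, n = 3 each). *Rps29* (1130 on average over the libraries) and the stalk protein gene *Rplp1* (1090) came next and were within each other's spread. The median was 381 CPM per kb for the large subunit and 449 for the small subunit. At the low end stood the paralogs *Rpl7l1* (50.8), *Rps27l* (61.4) and *Rps4l* (11.6 CPM per kb), the last a single-exon gene with no annotated coding sequence. *Rps20* (48.7) has only a transcript model of 3706 bases, which sets its low value.

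With *Dek* silencing, ribosomal protein mRNAs fell more often than they rose, and the falls were unequal. Of the 81 members, 35 were lower with *Dek* shRNA than with scrambled shRNA and 5 were higher (edgeR quasi-likelihood test, Benjamini-Hochberg adjusted p below 0.05 over 14232 genes), where 28.5% of all genes tested were lower and 26.2% higher. The members' median log2 fold change (log2FC) was −0.11, beside 0.00 over all genes. The largest falls were in *Rps9*, *Rpl28*, *Rpl21* and *Rplp0*, each past −0.77, while the highest rises were in the paralogs *Rps27l* and *Rps4l*. Scaled by library size alone, 20 members were lower and 11 higher, where 3210 of all 14232 genes were lower and 4793 higher. The median log2FC was then −0.01 for members and 0.10 over all genes.

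**Figure D1:**
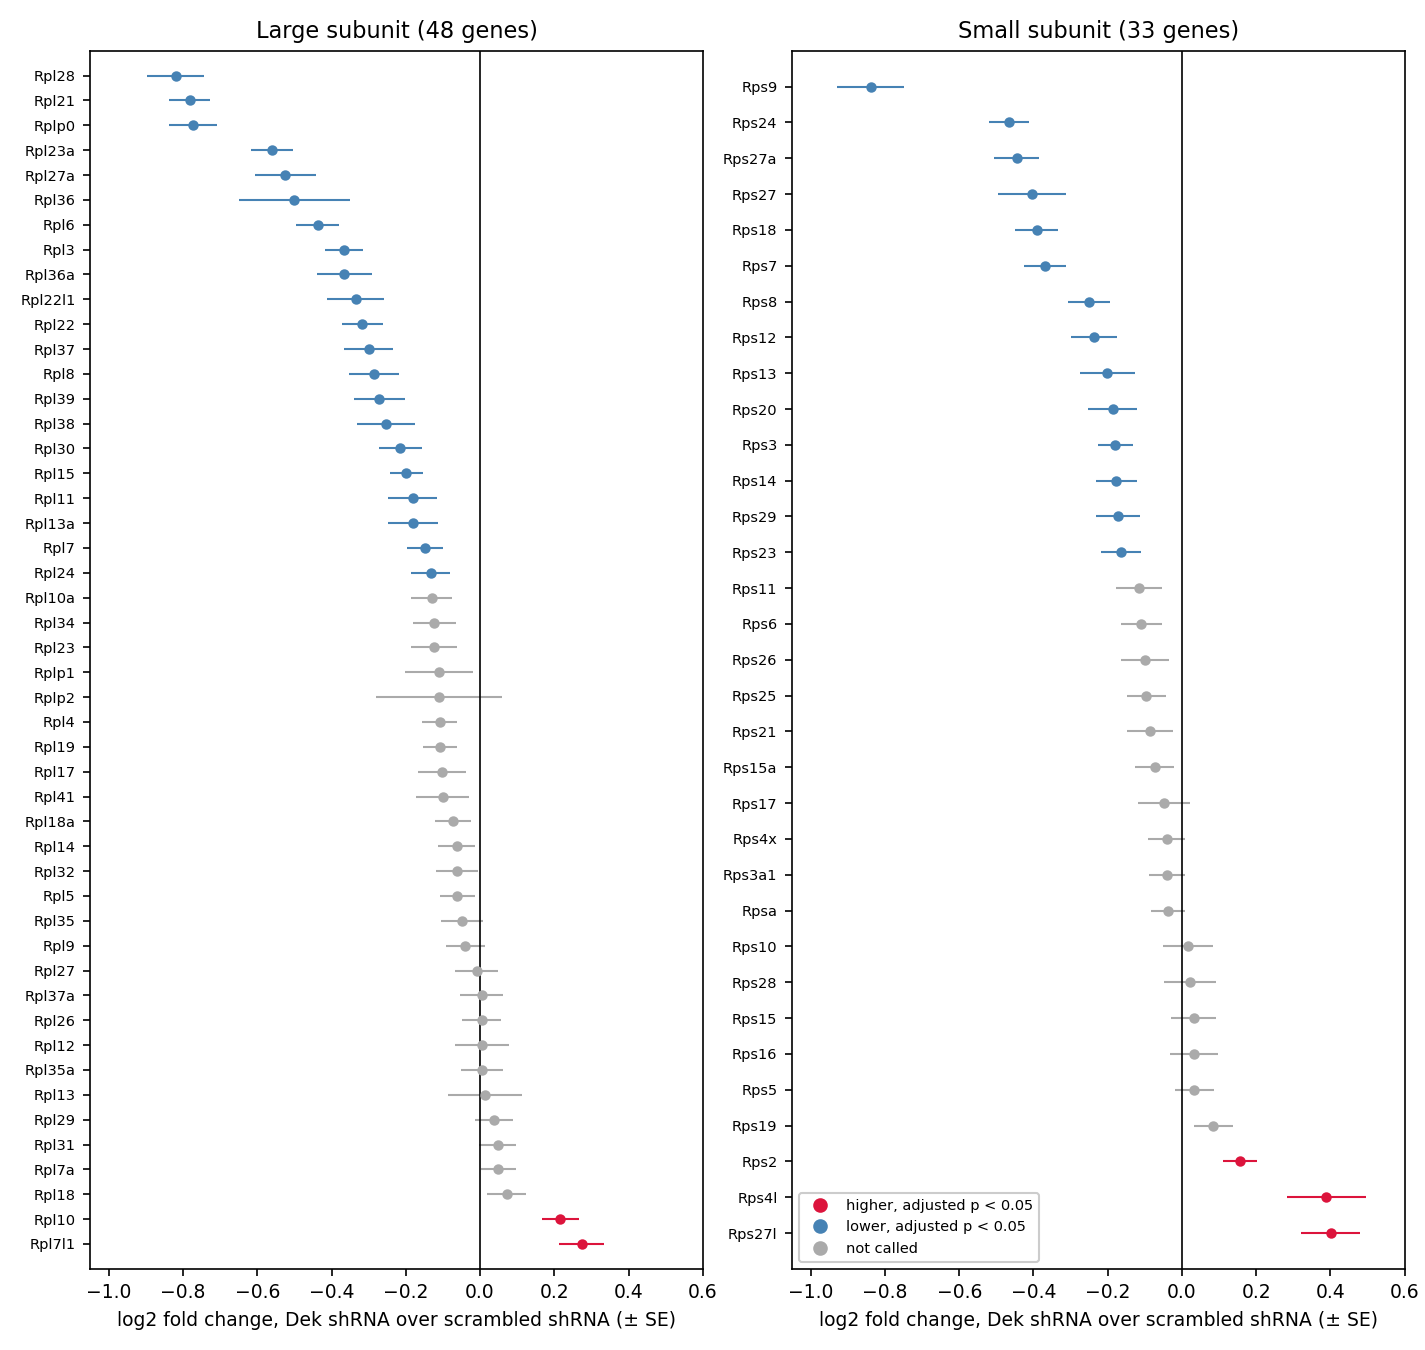
Log2 fold change of each member, *Dek* shRNA over scrambled shRNA (x axis), with its standard error, for 48 large subunit genes (left) and 33 small subunit genes (right). Blue points are called lower, red points higher and grey points were not called; in each panel a few genes lie far to the left of the rest, *Rpl28* at −0.82 and *Rps9* at −0.84 farthest.

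Genes of both subunits fell. In the large subunit 21 of 48 genes were lower and 2 higher, with a median log2FC of −0.12. In the small subunit 14 of 33 were lower and 3 higher, with a median of −0.10. The medians differed by −0.02, and by −0.04 to 0.00 when single libraries were left out.

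Summed normalised CPM of the large subunit was 15362, 14420 and 16111 with *Dek* shRNA, against 16751, 17211 and 17250 with scrambled shRNA. The small subunit summed to 10879, 10273 and 11314 CPM, against 11447, 11956 and 11960. On this TMM scale neither pair of groups overlapped, and the sum fell by 10.4% in the large subunit and fell by 8.19% in the small subunit. As a plain share of the library's counts the groups overlapped, with members at 2.71%, 2.58% and 2.87% with *Dek* shRNA (mean 2.72%), against 2.77%, 2.86% and 2.87% with scrambled shRNA (mean 2.83%). A few genes made up much of the drop in the sums. *Rplp0*, *Rpl21* and *Rpl3* gave 14.5%, 12.9% and 9.02% of the drop of the large subunit sum, and *Rps9* and *Rps24* gave 18.9% and 14.5% of that of the small subunit.

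The ratio of the large to the small sum was 1.412, 1.404 and 1.424 with *Dek* shRNA, against 1.463, 1.44 and 1.442 with scrambled shRNA. It was 1.443, 1.435 and 1.446 with *Dek* cDNA, against 1.457, 1.445 and 1.454 with empty vector. The 3 silenced libraries were the lowest of the 12, by 1.424 against 1.435. No test was made of these sums, since the members were chosen with results of these data known.

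**Figure D2:**
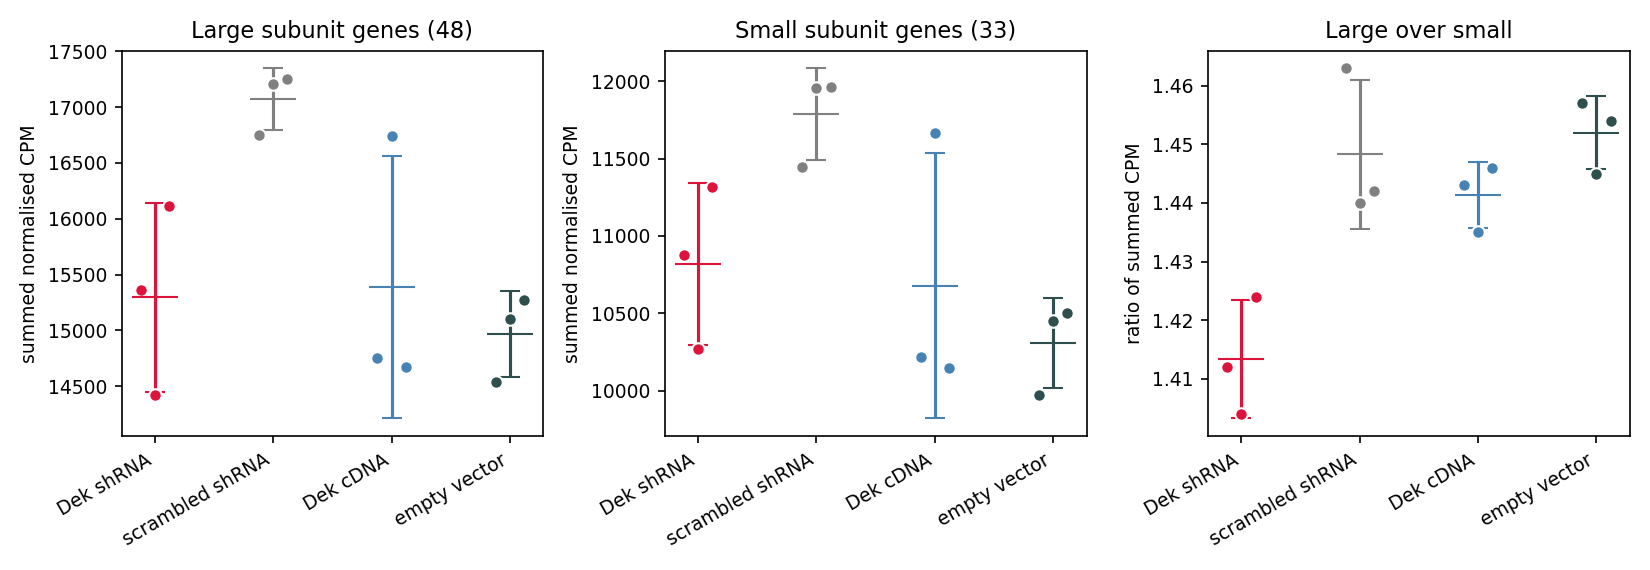
Summed normalised CPM of the 48 large subunit genes (left) and the 33 small subunit genes (middle), and their ratio (right), by group. Each point is a library, and the bar and whiskers are the mean and SD of 3; the axes do not start at 0. The scrambled shRNA libraries had the highest mean sums of both subunits, and the *Dek* shRNA libraries had the lowest ratios, 1.404 to 1.424.

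*Rps9* encodes a small subunit protein near the entry of the mRNA channel. It was at 222, 218 and 271 CPM with *Dek* shRNA, against 388, 437 and 434 with scrambled shRNA (log2FC −0.84, SE 0.09, adjusted p = 4.05e-05). The groups were far apart. The *Dek* cDNA (336, 394 and 340) and empty vector (347, 352 and 341) libraries were above all silenced ones and, apart from the second *Dek* cDNA library, below all with scrambled shRNA.

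*Rpl28*, a large subunit protein found in eukaryotes, was at 112, 104 and 130 CPM, against 203, 196 and 205 (log2FC −0.82, SE 0.08, adjusted p = 3.6e-06). *Rpl21*, another large subunit protein, was at 334, 301 and 342 CPM, against 545, 558 and 559 (log2FC −0.78, SE 0.06, adjusted p = 2.89e-07). In both genes every silenced library was below all 9 others.

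*Rplp0* encodes P0, the base of the stalk that recruits elongation factors. It was at 358, 348 and 412 CPM, against 612, 638 and 642 (log2FC −0.77, SE 0.06, adjusted p = 1.31e-06). The other stalk genes did not share this fall. *Rplp1*, *Rplp2* and *Rpl12* were not called, at log2FC −0.11 (SE 0.09), −0.11 (SE 0.17) and 0.01 (SE 0.07).

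*Rplp1* and *Rplp2* were also among the most variable members. With *Dek* shRNA *Rplp2* was at 160, 203 and 253 CPM, a coefficient of variation of 22.5%, which is the highest of that group, where the median member varied by 6.34%. With *Dek* cDNA *Rplp1* was at 483, 579 and 345 CPM and *Rplp2* at 156, 207 and 116. The third *Dek* cDNA library was the lowest and the second the highest for both.

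*Rpl23a*, at the exit of the peptide tunnel, was at 286, 265 and 292 CPM with *Dek* shRNA, against 392, 410 and 429 with scrambled shRNA (log2FC −0.56, SE 0.06). *Rpl27a* followed at log2FC −0.52 (SE 0.08), with 189, 207 and 240 CPM against 293, 315 and 298. Neither pair of groups overlapped. Among the small subunit genes, *Rps24*, *Rps27a*, *Rps27* and *Rps18* fell by 0.47, 0.45, 0.40 and 0.39 on the log2 scale, each without overlap of the groups and with adjusted p from 1.77e-05 to 0.00464 in the edgeR test.

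**Figure D3:**
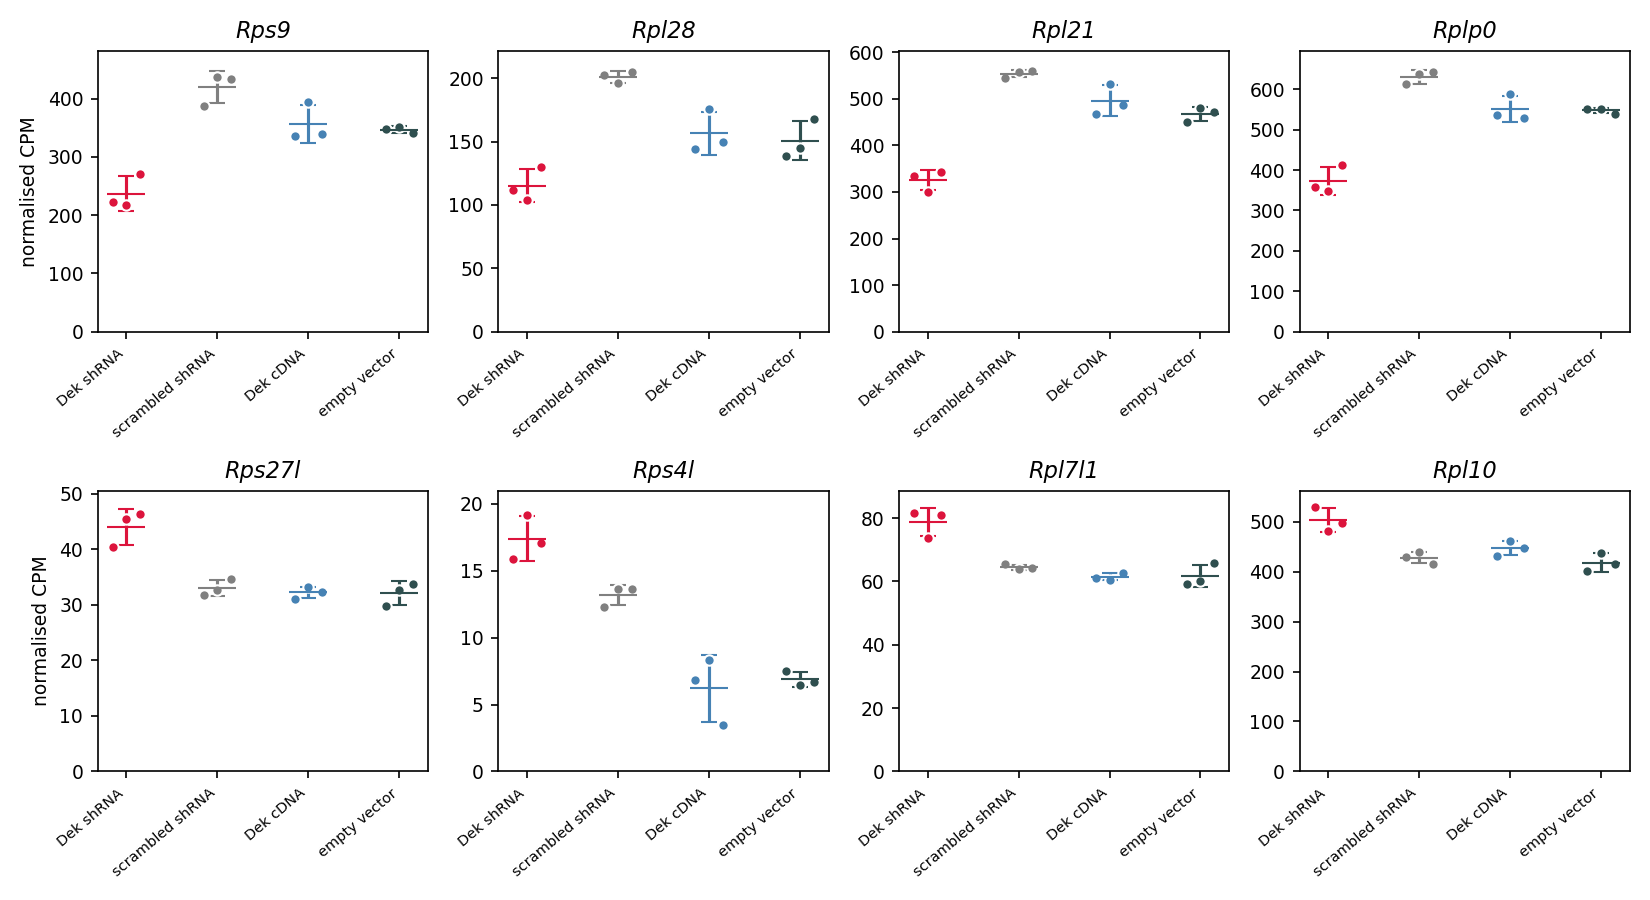
Normalised CPM of 4 members with the largest falls (top row) and 4 that rose with silencing (bottom row) in each library. Points are wells, and the bar and whiskers are the mean and SD of 3; every y axis starts at 0. *Rps4l* was at 6.22 ± 2.51 CPM with *Dek* cDNA and 6.87 ± 0.55 with empty vector, below both hairpin groups.

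The members that rose included 3 of the least abundant. *Rps27l*, a paralog of *Rps27* known as a p53 target, was at 40.3, 45.4 and 46.3 CPM with *Dek* shRNA, against 31.7, 32.7 and 34.6 with scrambled shRNA (log2FC 0.40, SE 0.08, adjusted p = 0.00112). Its parent *Rps27* moved the other way, at 186, 166 and 221 CPM against 244, 256 and 250 (log2FC −0.40, SE 0.09). The groups did not overlap in either gene.

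*Rpl7l1*, a paralog of *Rpl7*, was at 81.6, 73.8 and 81.1 CPM, against 65.4, 63.9 and 64.3 (log2FC 0.27, SE 0.06, adjusted p = 0.00221), and *Rpl7* was lower, at log2FC −0.15 (SE 0.05, adjusted p = 0.0208). *Rps4l* was at 15.9, 19.2 and 17.1 CPM, against 12.3, 13.6 and 13.6 (log2FC 0.39, SE 0.11, adjusted p = 0.0083), while *Rps4x*, its X-linked relative, was not called (log2FC −0.04, SE 0.05). The call of *Rps4l* was lost with the GC content and length correction (adjusted p = 0.0589) and in a fit of all 12 libraries (adjusted p = 0.0794).

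*Rpl10*, among the last proteins to join the large subunit, was at 529, 482 and 497 CPM, against 429, 439 and 416 (log2FC 0.22, SE 0.05, adjusted p = 0.00294). *Rps2*, near the mRNA entry, was at 638, 641 and 659 CPM, against 562, 576 and 584 (log2FC 0.16, SE 0.05, adjusted p = 0.0113). Both sets of groups stood apart, but *Rps2* was not called once GC content and length were corrected for (log2FC 0.02, adjusted p = 0.693).

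*Rpl22l1* and its parent *Rpl22* were both lower, at log2FC −0.33 (SE 0.08) and −0.32 (SE 0.06). Of the parents whose paralogs lie outside the set, *Rpl39* and *Rpl3* were lower at −0.27 and −0.37, and *Rpl36a* at −0.37. *Rpl3l*, under the 5 CPM floor, was at 0.928, 1.14 and 0.585 CPM with *Dek* shRNA, against 0.738, 0.179 and 0.474 with scrambled shRNA, groups that overlap.

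Of 18 genes mutated in Diamond-Blackfan anaemia, an inherited failure of red cell production, 6 (33.3%) were lower, near the 28.5% of all genes, none was higher and 12 were not called. The 6 were *Rps24*, *Rps27*, *Rps7*, *Rpl15*, *Rpl11* and *Rps29*, and the median log2FC of the 18 was −0.05. *Rps19*, the gene most often mutated in that disease, was at 350, 338 and 348 CPM, against 303, 330 and 334 (log2FC 0.08, SE 0.05, not called). *Rpl11* and *Rpl5*, which with 5S RNA bind and inhibit Mdm2, were at log2FC −0.18 (SE 0.07, adjusted p = 0.0361) and −0.06 (SE 0.05, adjusted p = 0.285), and *Rpl23* at −0.12 (SE 0.06, adjusted p = 0.114).

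*Rps6*, the substrate of the S6 kinases, was not called, with 348, 311 and 349 CPM against 365, 350 and 363. *Rps27a*, which is made as a fusion with ubiquitin, was at 256, 225 and 261 CPM, against 325, 341 and 334. Of 6 members with reported mRNA-selective roles, 4 (66.7%) were lower (*Rpl22*, *Rpl38*, *Rpl13a* and *Rps3*) and none higher. Among all 81 members 43.2% were lower and 6.17% higher, and among all genes tested 28.5% and 26.2%. Whether these 6 differ from the other members was not tested. *Rps25* and *Rpl10a* were at log2FC −0.10 and −0.13 and were not called.

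These 3 ribosome genes outside the symbol rule differed sharply from each other. *Rpl36al*, a paralog of *Rpl36a*, was at 50.1, 41.8 and 55.1 CPM with *Dek* shRNA, against 122, 111 and 122 with scrambled shRNA (log2FC −1.28, SE 0.09, adjusted p = 7.59e-07). That is a larger fall than any member's. *Fau*, which encodes Rps30 fused to a ubiquitin-like protein, was at log2FC 0.14 (SE 0.06, adjusted p = 0.0873), and the small subunit scaffold *Rack1* at −0.03 (SE 0.05). Neither was called.

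The plot of silencing by shared letters sets the log2FC beside the sequences printed above. *Rps9* and *Rpl28*, with 10 letters in a row, had the lowest log2FC of their subunits. The 7 members with 9 letters had a median of −0.32 and ranged from −0.78 (*Rpl21*) to −0.01 (*Rpl27*). *Rpsa* and *Rplp2* also carry 9 and were at −0.04 and −0.11, not called. Members with 8, 7, 6 and 5 letters had medians of −0.14, −0.06, −0.11 and −0.06.

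*Rplp0*, *Rpl23a* and *Rpl6* share no more than 6 letters and were at −0.77, −0.56 and −0.44. The heptamer AAGAGGA, present in 19 members, went with a median of −0.30, against −0.10 in the 62 without it. In 13266 other genes tested the heptamer was in 46.9% of main coding transcripts (23.8% of the members'), with a median log2FC of −0.16, against 0.12 in genes without it. A run of at least 9 shared letters was in 20% of the same genes (11.25% of the 80 members with a coding transcript), with a median of −0.18, against 0.04 in genes without it, and in members these medians were −0.37 and −0.11. The other genes' transcripts were longer, with a median of 3065 bases, against 815 for the members. The letters that would pair with bases 2 to 8 of a guide starting opposite the last base of the site were in 6 members, with a median of −0.23. The heptamer was chosen after values had been seen, and whether shared letters bear on these changes was not tested.

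**Figure D4:**
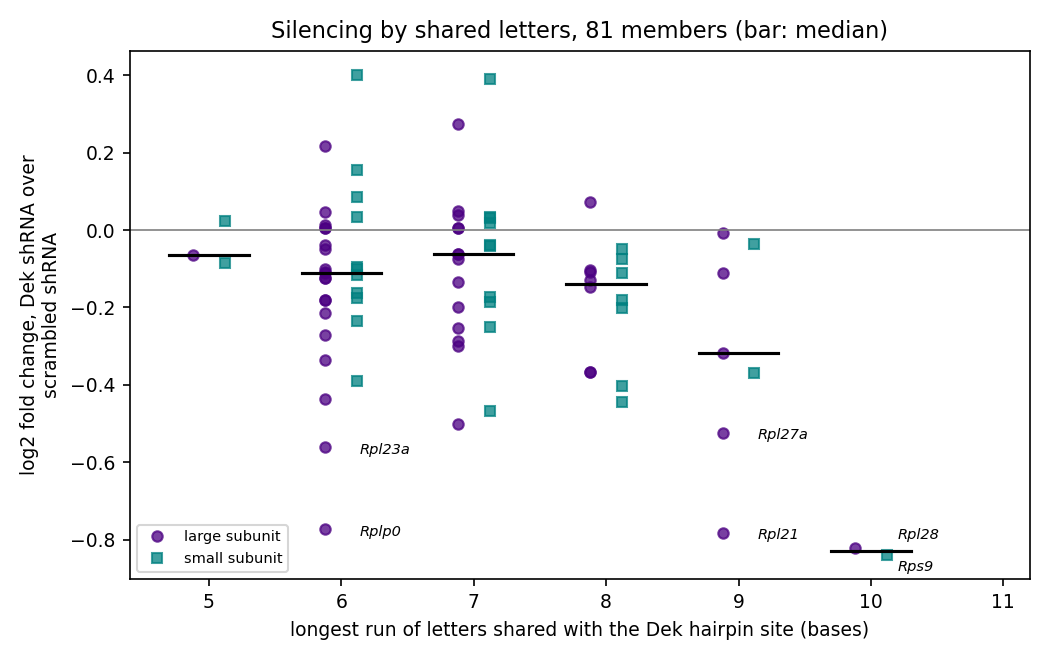
Log2 fold change with silencing (y axis) of the 81 members by the longest run of letters, in bases, that their main transcript shares with the *Dek* hairpin site (x axis). Points are genes, circles large and squares small subunit, and bars are medians; the genes with 10 shared letters, *Rps9* and *Rpl28*, are at the bottom, and *Rplp0* lies nearly as low with 6.

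The promoter runs did not divide the members in this way. The 26 genes with a run of at least 6 C or T at a start had a median log2FC of −0.11, and the 34 with shorter runs had −0.10. Only 18.3% of these annotated starts showed a C and 4 pyrimidines, so the split cannot tell which mRNAs carry a TOP tract.

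Against the empty vector, the silenced cultures gave another picture. These groups differ in virus cassette, in hairpin and in the experiment that the labels name, silencing or overexpression, which cannot be told apart. With *Dek* shRNA 15 members were lower and 31 higher than with empty vector, where 33.5% of all 14292 genes tested were lower and 34% higher. Without empty vector replicate 1, 19 were higher, where 4373 of all 14564 genes were higher. The median log2FC was 0.11 for the large and 0.13 for the small subunit, beside 0.02 over all genes. The lowest were *Rplp0* (−0.55), *Rps9* (−0.55), *Rpl21* (−0.52), *Rpl23a* (−0.42) and *Rpl28* (−0.39), all called, and then *Rps24*, *Rps18*, *Rpl6*, *Rpl22*, *Rpl3* and *Rps7* between −0.30 and −0.22. The highest were *Rps4l* (1.34), *Rps27l* (0.46), *Rpl7l1* (0.36), *Rpl18* (0.36), *Rps16* (0.33), *Rps28* (0.32), *Rpl41* (0.32), *Rpl13* (0.31), *Rpl37a* (0.31) and *Rps2* (0.31). This comparison shares the silenced libraries with the one above, and the oligodendrocyte markers moved in it too, at 82.4 to 89.8 CPM in sum with *Dek* shRNA, against 44.6 to 45.6 with empty vector.

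With scrambled shRNA, the 2 controls being set against each other, 64 of 81 members were higher and 0 lower than with empty vector, where 21.3% of all 14096 genes tested were higher and 21.8% lower. In the large subunit 39 of 48 were higher (median log2FC 0.20) and in the small subunit 25 of 33 (median 0.21), beside a median of 0.01 over all genes. By an unadjusted p below 0.05, 69 were higher and 0 lower, where 25.5% of all genes tested were higher and 25.5% lower. DESeq2 called 0 members lower too, where 2702 of all 14096 genes were lower. The members took 2.77%, 2.86% and 2.87% of the counts with scrambled shRNA, against 2.42%, 2.52% and 2.55% with empty vector. These groups differ in the virus cassette as well as in the hairpin. The labels also place them in different experiments, silencing and overexpression, and do not say whether these were cultured or sequenced together. These differences cannot be told apart. Markers of other cells moved here too. The 4 dividing-cell markers summed to 8.29 to 19.5 CPM with scrambled shRNA, against 20.8 to 26.8 with empty vector, and the 4 markers of fibroblasts and mural cells to 8.17 to 8.76, against 11 to 13.2. The 5 oligodendrocyte markers summed to 30.8 to 41.2 CPM, against 44.6 to 45.6, while the sums of the 7 astrocyte markers overlapped, at 470 to 696 against 386 to 479. Their part in the members' values was not tested.

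*Rps4l* was highest in this comparison, at 12.3, 13.6 and 13.6 CPM with scrambled shRNA, against 7.5, 6.46 and 6.66 with empty vector (log2FC 0.94, SE 0.11, adjusted p = 2.6e-05). *Rps27* (0.43), *Rps12* (0.39), *Rps20* (0.37) and *Rps21* (0.36) followed in the small subunit. In the large subunit *Rpl28* (0.42), *Rpl37* (0.41), *Rpl41* (0.40), *Rpl38* (0.38) and *Rplp2* (0.34) led, none with overlapping groups.

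The calls of this comparison changed when each library was corrected for GC content and transcript length. With the correction, 12 members were higher and 12 lower with scrambled shRNA than with empty vector, and the members' median log2FC was 0.00. Of all 13832 genes in that fit, 2408 were higher and 2096 lower. The members' transcripts were short, with a median of 774 bases in the large and 661 in the small subunit, against 2849 over all genes tested. In silencing the corrected fit gave 3 higher and 50 lower, with a members' median of −0.18. Of all 13958 genes there, 3862 were higher and 3981 lower. Against the empty vector it gave 5 higher and 56 lower, with a median of −0.22, where 4621 of all 14019 genes were higher and 4537 lower. *Rps9*, *Rpl28*, *Rplp0* and *Rpl21* were at −0.96, −0.92, −0.87 and −0.83 in the corrected silencing fit. So the 4 largest falls were found under either treatment, while the side of zero on which the members lay against the empty vector was not.

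**Figure D5:**
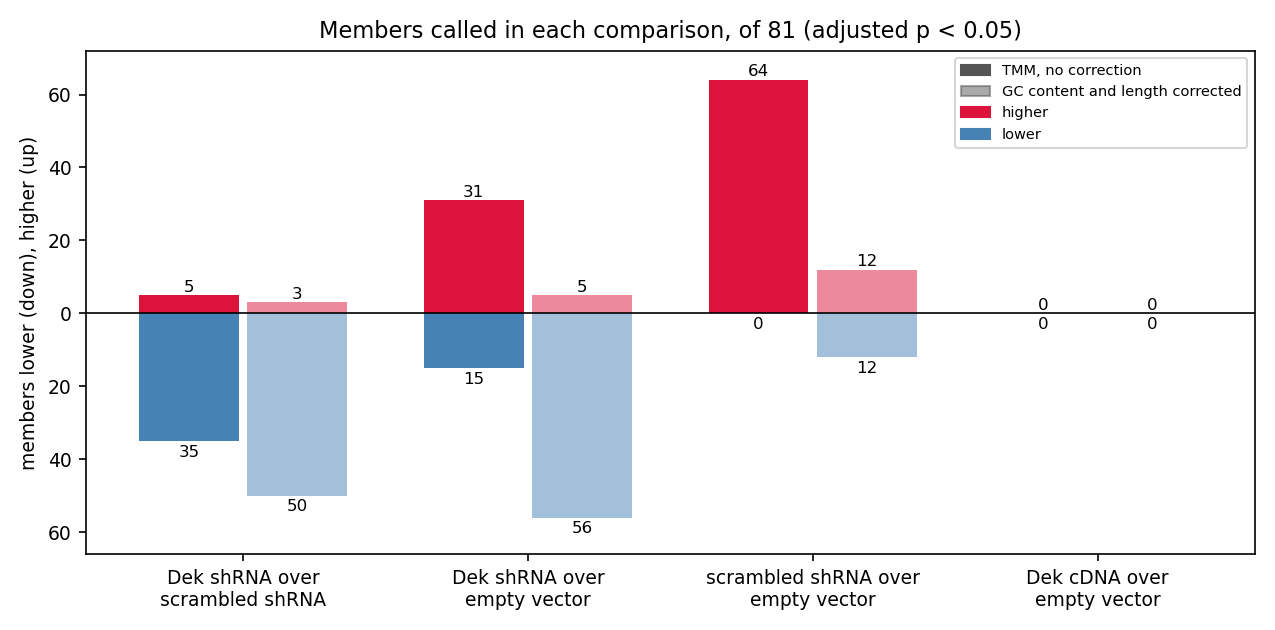
Members called higher (red, upward) and lower (blue, downward) of 81 in 4 comparisons (x axis), from counts scaled by TMM (dark bars, left of each pair) and with each library adjusted for GC content and length (light bars, right). The 64 higher calls of scrambled shRNA over empty vector became 12 higher and 12 lower, and overexpression had 0 calls under both.

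With *Dek* overexpression no member was called, 0 higher and 0 lower, in the edgeR test over 14089 genes, in which 0.0071% of genes were called higher (*Dek* alone) and 0% lower. DESeq2 also called 0 members. At an unadjusted p below 0.05, 5 members were higher and 0 lower, beside 2.92% and 3.68% of all genes tested. The medians were 0.06 in both subunits and 0.00 over all genes. Without the second *Dek* cDNA library the members' median was −0.001, beside 0.0044 over all genes.

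The 5 were *Rps27* (log2FC 0.15, SE 0.06), *Rpl39* (0.15, SE 0.06), *Rpl30* (0.14, SE 0.06), *Rps4x* (0.13, SE 0.06) and *Rpl9* (0.13, SE 0.05), with adjusted p from 0.695 to 0.714. *Rps27* was at 197, 216 and 199 CPM with *Dek* cDNA, against 181, 195 and 178 with empty vector, groups that stand just apart. *Rpl39* overlapped, at 237, 272 and 258 CPM against 224, 244 and 227. The second *Dek* cDNA library stood above its group, with 2.8% of its counts in members, against 2.48% and 2.46% in the other *Dek* cDNA libraries and 2.42% to 2.55% with empty vector.

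The silencing response minus the overexpression response was tested in a single fit of the 12 libraries. It was called negative for 28 members and called positive for 3, where 22.7% of 14604 genes tested were called negative and 20.4% positive. By sign alone it was negative in 62 members and positive in 19, beside 7135 and 7469 of all genes. The members called lowest were *Rps9* (−0.86), *Rpl28* (−0.86), *Rpl21* (−0.85), *Rplp0* (−0.77) and *Rpl23a* (−0.63), and those called positive were *Rps27l* (0.41), *Rpl7l1* (0.29) and *Rps2* (0.21). *Rps27* (−0.53), *Rps24* (−0.53), *Rps27a* (−0.53), *Rpl27a* (−0.48) and *Rps7* (−0.41) were also called. The medians were −0.15 for the large and −0.14 for the small subunit, beside 0.01 over all genes.

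Genes that build and use ribosomes were read from 5 fixed lists in the silencing comparison, beside the 28.5% of all genes that were lower and the 26.2% that were higher. Of 82 ribosome biogenesis genes 48 (58.5%) were lower and 11 (13.4%) higher, with a median log2FC of −0.33. *Ncl*, which encodes the nucleolar protein nucleolin, was at 126, 120 and 155 CPM with *Dek* shRNA, against 555, 544 and 552 with scrambled shRNA (log2FC −2.06, SE 0.09, adjusted p = 6.69e-08). *Nolc1* (−1.57), *Noc2l* (−1.23) and *Npm1*, the nucleolar chaperone nucleophosmin (−0.82), were lower too, while *Eif6* (0.63), which keeps the subunits apart, *Nhp2* (0.58), *Polr1e* (0.53) and *Utp4* (0.50) were higher.

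Of 37 translation initiation factors 23 (62.2%) were lower and 4 (10.8%) higher, with a median of −0.22. *Eif3d*, a cap-binding subunit of eIF3, was at 45.9, 43.6 and 54.2 CPM, against 174, 162 and 164 (log2FC −1.81, SE 0.08). *Eif5b* (−1.14), *Eif4g3* (−0.64) and *Eif3a* (−0.54) were also lower, and *Eif2b2* (0.36), *Eif2b4* (0.31) and *Eif1ax* (0.19) were higher beside *Eif6*.

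Of 23 further TOP or ribosome-linked genes tested 12 (52.2%) were lower and 2 (8.7%) higher, with a median of −0.14. Beside *Rpl36al* and *Npm1*, *Nap1l1* (−0.97) and *Eif4b* (−0.51) were the lower genes with the smallest adjusted p, and *Hnrnpa1* (0.38) and *Pabpc1* (0.15) were the 2 that rose. In the list of regulators of TOP mRNAs and S6 phosphorylation 13 of 28 (46.4%) were lower and 4 (14.3%) higher. This list also holds genes of the MYC network, among them *Mnt*, *Mxd1* and *Max*. *Mnt* (−0.85), *Tsc1*, a brake on mTOR (−0.67), *Tia1* (−0.58) and *Mlst8* (−0.46) were lower, and *Mxd1* (1.56), *Eif4ebp2* (0.37), *Max* (0.26) and *Mtor* (0.17) higher.

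Of 17 tested genes of ribosome quality control and stress, 8 (47.1%) were lower and 4 (23.5%) higher. *Ube2o* (−0.91), *Nemf* (−0.76), *Zfp598* (−0.58) and *G3bp1* (−0.52) were lower. *Gtpbp1* (1.12), *Trp53* (0.46), the gene of p53, *Map3k20* (0.33) and *Mdm2* (0.30), which marks p53 for degradation, were higher.

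Counts of ribosomal protein genes are uncertain where copies share their sequence. In 47 of the 81 members at least 50% of the 31-base words of the main transcript also occur in transcripts of other genes. The annotated types of those genes were not read. The share reached 98.7% in *Rps27*. It was 43% in *Rps9*, 53.3% in *Rplp0*, 35.7% in *Rpl28*, 27.4% in *Rpl21*, 20.4% in *Rps27l* and 26% in *Rps4l*. How the authors' estimates divided reads between such copies was not tested.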

How the data were processed

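RNA sequencing of 12 wells was analysed. The authors deposited expected counts per gene (38.1% not whole numbers, 9 genes without a symbol), and their processing notes name Salmon, DESeq2 and mm10 without versions. The members and gene lists were chosen with earlier results of these data known. Counts were rounded, filtered with filterByExpr, scaled by TMM and tested with the robust quasi-likelihood test of edgeR 4.0.16 in R 4.3.3, with adjusted p-values (Benjamini-Hochberg) taken over the whole table and a threshold of 0.05. CPM in the text uses TMM factors of all 12 libraries. The GC content and length correction fits splines with 5 degrees of freedom per library. Alternatives used DESeq2 1.42.0 and limma 3.58.1. On simulated counts for silencing (14232 genes), 86% of 50 genes changed 1.5-fold and 18% of 50 changed 1.2-fold were recovered. Of all calls on these counts, 8.43% were of unchanged genes, above the threshold. Few genes were changed in these counts, whereas in silencing 28.5% of genes were called lower and 26.2% higher. Adjusted p depends on that share, so these percentages need not hold for the data. Genes named are, per comparison, up to 5 members per subunit and direction with the largest log2FC among those called without overlapping groups, the members of 6 functional groups, and up to 4 genes per list and direction with the smallest adjusted p. Deviations from group means of same-numbered wells correlated at 0.387, 0.207 and 0.118 between *Dek* shRNA and scrambled shRNA. Wells with different numbers ran from −0.331 to 0.229, the highest being the second *Dek* shRNA with the third scrambled shRNA well. Same numbers were thus not singled out, and pairing by number is a weak hint from the data and not the labels. It was used only in the replicate block. Same-numbered wells were not correlated in this way between *Dek* cDNA and empty vector or between scrambled shRNA and empty vector. Other pairs of groups were not examined. No 2 libraries were identical. The values of another gene outside the member set are not reported here.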

Additional observations from a re-analysis of the deposited data

How the results depend on the processing

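Correcting for GC content and length turned the members' direction as a group in *Dek* shRNA over empty vector, whereas lower calls stayed the more frequent in silencing and in the difference of responses. With it, silencing gave 3 higher calls, and 53 lower with the replicate block beside it. *Dek* shRNA over empty vector gave 5 higher and 56 lower (5 and 53 with the block, 5 and 54 with the shortest transcript), and scrambled shRNA over empty vector gave 12 higher and 12 lower (9 and 9, 13 and 11). The difference of responses gave 48 lower (51 with the block, 47 with the shortest transcript). Of all 14312 genes, 3427 were lower in that corrected fit without the block. The shortest transcript was added after seeing the data, and also gave 3 higher in silencing. Scaling by library size alone gave 11 higher and 20 lower in silencing and 18 lower in the difference of responses. Over all genes it gave 4793 higher and 3210 lower of 14232 in silencing, and 2733 lower of 14604 in the difference. Members at 50 CPM or more gave 3 higher in silencing. The cause of these shifts was not tested.

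In *Dek* shRNA over empty vector 5 called members changed sign under the correction. Their log2FC with the main transcript, with the block beside it and with the shortest transcript was −0.13, −0.14 and −0.12 for *Rpl13*, −0.11, −0.11 and −0.10 for *Rpl18*, −0.12, −0.13 and −0.11 for *Rpl41*, −0.10, −0.10 and −0.088 for *Rps2*, and −0.043, −0.045 and −0.0055 for *Rps28*.

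Leaving out single libraries gave 24 to 39 lower and 5 to 5 higher in silencing, 19 to 37 higher and 12 to 20 lower in *Dek* shRNA over empty vector, 51 to 66 higher in scrambled shRNA over empty vector and 21 to 32 lower in the difference of responses. The 19 came without empty vector replicate 1. Over all genes the fits without single libraries gave 3563 to 4053 lower and 3160 to 3803 higher in silencing. They gave 4252 to 4854 higher and 4351 to 4999 lower in *Dek* shRNA over empty vector. Of all genes, 2234 to 3191 were higher in scrambled shRNA over empty vector and 3054 to 3400 lower in the difference of responses. The replicate block alone, for wells that share a number, gave 37 lower and 5 higher in silencing. It gave 57 higher in scrambled shRNA over empty vector and 0 in overexpression. Over all genes the block gave 4412 lower and 4208 higher in silencing, and 2351 higher in scrambled shRNA over empty vector. Of the named genes' values under all alternatives, 2359 stayed called or stayed not called, 86 lost the call and 35 gained it. Another 15 were of called genes and changed sign. Changes of sign in genes not called were not counted. With 3 wells a group, small differences may go uncalled. The 18% recovery of 1.2-fold changes came from simulated counts with few changed genes, so it need not hold for silencing.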
